A study of Mus musculus with 2 samples.

Results

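The 9 genes described here encode transcription factors of the suprachiasmatic nucleus (SCN), the paired hypothalamic nucleus above the optic chiasm that holds the master circadian pacemaker of mammals. They are the LIM homeobox genes Lhx1 and Lhx2, the sine oculis homeobox genes Six3 and Six6, the ventral anterior homeobox gene Vax1, the zinc finger homeobox gene Zfhx3, the teashirt gene Tshz1, the retinoid receptor gene Rxrg and the zinc finger gene Zic1. They were chosen by name, as regulators of SCN specification and adult identity, and each was found as 1 row of the deposited table, so 9 of 24229 listed genes are members. The study asked how light schedules reprogram circadian behaviour. Wild-type C57BL/6 mice aged 68 postnatal days were entrained for 4 weeks to a short light-dark cycle (ST) or to a normal one (NT). Before this, both groups shared 7 days of darkness. Each group held 8 mice. Wheel running was then recorded in darkness, and after 5 days the activity onset of each animal was predicted. The SCN was cut from fresh slices at circadian time 4 h. RNA came from a kit for nuclear or cytoplasmic RNA, with the fraction not stated, and polyadenylated RNA was sequenced as 1 library per group. The cycle lengths and how many mice were pooled per library were not given in the sources used here.

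With 1 library per group there was no estimate of the spread between animals and no test was possible. Every difference below compares 2 libraries, sampled at 1 circadian time, and the 95% intervals cover counting error only. The ST library held 19476754 counts and the NT library 24790678. Peptides made by SCN neurons were abundant. Avp, vasopressin of the shell, had 656 RPKM in ST and 563 in NT. Vip, the peptide of the light-receiving core, had 168 RPKM in ST and 197 in NT. Oxt, a peptide of the neighbouring hypothalamus, was higher still, with 812 RPKM in ST and 655 in NT. These levels therefore do not show how much surrounding tissue the pieces held. RPKM divides reads by gene length and library total. Markers of oligodendrocytes were lower in ST in 10 of 10 cases, of endothelial and mural cells in 8 of 8, of microglia in 8 of 8, of meninges in 8 of 8 measured genes and of astrocytes in 7 of 8. Summed levels were 1007 RPKM in ST and 1224 RPKM in NT for oligodendrocyte, 54.5 in ST and 68.6 in NT for vascular, 97.3 in ST and 116 in NT for microglial and 698 in ST and 759 in NT for astrocyte markers. The 13 measured pan-neuronal genes had a median log2 ratio of 0.01. In pieces of tissue, fewer cells of a type and less RNA per cell cannot be told apart.

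The SCN arises late in embryonic life from the anterior ventral hypothalamus, in a field that depends on Six3, Six6, Lhx2 and Vax1, genes also needed for the eye and the optic stalk. Lhx1 acts later, as the newborn neurons differentiate, and mice that lose it in the SCN have weak peptide expression and poorly coupled cells. Zfhx3 stays on in adult SCN neurons, where its product binds AT-rich motifs of neuropeptide genes, and a missense mutation in it shortens the circadian period in mice. Zic1, Tshz1 and Rxrg are expressed in forebrain fields that include the SCN or its surroundings, and Zic1 is also known from the meninges and the septum.

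Zic1, which with Zfhx3 was higher in ST beyond counting error, has a related gene as its neighbour, Zic4. They are transcribed away from each other on opposite strands of chromosome 9, with 3.16 kb between them in the deposited mm9 coordinates. Their start regions are shown because both genes were higher in ST (values after the members). They cover 250 bases before and 50 after each start and come from RefSeq on GRCm38.p6, Zic1 from chr9:91365719-91366018 on the minus strand and Zic4 from chr9:91368722-91369021 on the plus strand. Capitals mark the E-box, the element that CLOCK and BMAL1 bind.
Zic1: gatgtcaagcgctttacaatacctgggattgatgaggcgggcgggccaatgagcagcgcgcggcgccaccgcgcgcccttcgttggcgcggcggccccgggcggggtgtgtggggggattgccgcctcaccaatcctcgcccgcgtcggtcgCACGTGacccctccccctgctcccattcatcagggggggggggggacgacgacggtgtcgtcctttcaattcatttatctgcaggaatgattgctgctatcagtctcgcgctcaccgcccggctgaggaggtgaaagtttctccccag
Zic4: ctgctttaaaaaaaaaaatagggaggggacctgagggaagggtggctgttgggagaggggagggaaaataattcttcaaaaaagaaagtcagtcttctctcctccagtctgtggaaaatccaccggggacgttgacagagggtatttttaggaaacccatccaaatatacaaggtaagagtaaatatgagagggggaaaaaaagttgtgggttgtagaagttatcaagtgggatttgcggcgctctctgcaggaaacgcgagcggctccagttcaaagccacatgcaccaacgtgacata

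Both strands were searched for 4 motifs: the E-box CACGTG, the cyclic AMP response element TGACGTCA, the homeodomain core TAATTA and the D-box TTATGTAA. These strings are not contained in one another. The table held start regions for 8 of the 9 members, 10 in all. Only the one of Zic1 held an E-box, an element found in 7.15% of all 32851 start regions, and 0 of the 10 held any of the other 3 motifs (1.79%, 5.29% and 0.938% of all). The start region of Zic1 was 65.3% G and C with 31 CpG, against a median of 52.7% and 7 CpG over all. That of Zic4 was 46.0% G and C with 8 CpG, that of Zfhx3 67.3% with 21 CpG, and that of Lhx1 65.7% with 31 CpG. A match describes these letters only, and no binding was measured.

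All 9 members passed the filter of a mean normalised count of at least 50, which 14343 genes passed. Expression of the group spanned a wide range in both libraries. Zic1 led with 48.5 RPKM in ST and 42.2 RPKM in NT, at percentiles 94.2 and 93.2 of all listed genes. Vax1, Six6, Lhx1 and Six3 formed a middle group between 14.8 and 23.4 RPKM, and Zfhx3, Rxrg and Tshz1 a lower one between 4.26 and 6.83 RPKM. Lhx2 was lowest, with 1.30 RPKM in ST and 1.28 RPKM in NT, near percentile 40.6 of all listed genes in ST and 40.5 in NT. Zic1 was 37.4 times as high as Lhx2 in ST and 33.0 times in NT. By read numbers Zic1 made up 42.4% of all counts of the 9 genes in ST and 39.8% in NT.

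**Figure D1:**
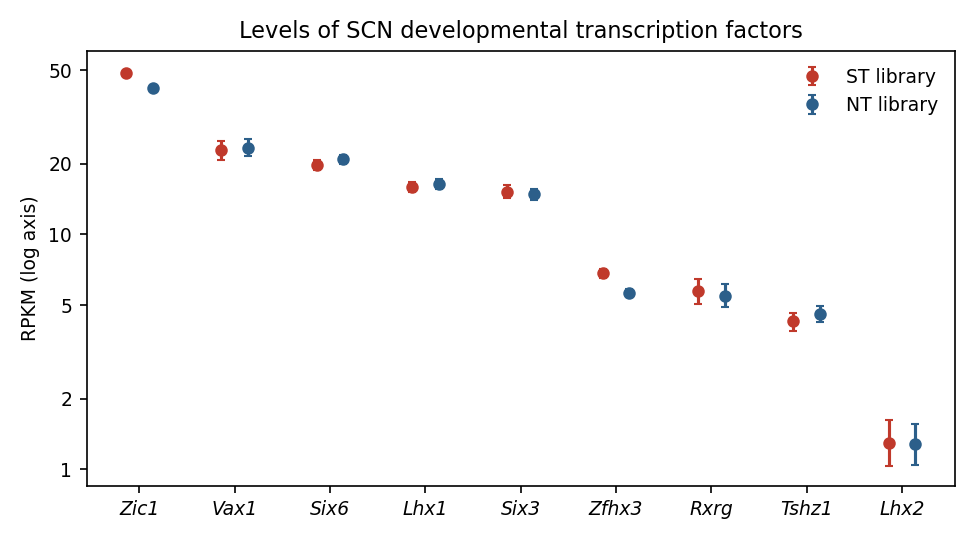
RPKM of the 9 members on a log axis, ST (red) left of NT (blue), 1 library each, with exact 95% Poisson intervals of the counts. Zic1 stands highest at 48.5 RPKM in ST and 42.2 in NT and Lhx2 lowest at 1.30 and 1.28; the pairs separate beyond their intervals only for Zic1 and Zfhx3.

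The order of the members was the same in both libraries: Zic1, Vax1, Six6, Lhx1, Six3, Zfhx3, Rxrg, Tshz1, Lhx2. Some neighbours in this order did not differ beyond their counting intervals. These were Vax1 and Six6, and Lhx1 and Six3, in either library, and in NT also Zfhx3 and Rxrg, and Rxrg and Tshz1. The order leans on the gene lengths that the authors used. For Vax1 the length was 1.01 kb, its coding part alone, and for Six3 3.38 kb, whereas the exons in GENCODE vM1 (mm9) cover 2197 bases of Vax1 and 8750 of Six3. Dividing the deposited counts by those annotated lengths gave Vax1 10.6 RPKM in ST and 10.8 in NT, and Six3 5.88 in ST and 5.71 in NT. Vax1 then took rank 4, after Six6 and Lhx1, and Six3 rank 6 in ST and rank 5 in NT. The deposited spans of Vax1 and Six3 are shorter than the annotated ones, so reads from the added bases may be missing from the counts. The recomputed levels may therefore be too low, and these ranks do not settle the order. The lengths of the other 7 members differed by less than 50 bases between both sources.

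Among the genes of early specification, all 4 intervals held 1, although that of Six6 lay below 1 with scaling on the pan-neuronal genes. Six3, which keeps the anterior forebrain and eye field from taking a posterior fate, lies on chromosome 17 from 86020371 to 86030129 (mm9, plus strand, ENSMUSG00000038805). It had 1002 counts (15.2 RPKM) in ST and 1238 counts (14.8 RPKM) in NT, a fold of 1.022 after scaling (interval 0.939 to 1.111). Six6, whose loss leaves mice without a recognisable SCN, lies on chromosome 12 from 74040932 to 74045886 (plus strand, 2 exons). It had 1524 counts (19.8 RPKM) in ST and 2048 counts (20.9 RPKM) in NT, a fold of 0.939 (0.878 to 1.004). Six6 was the lower of the pair relative to NT, but both intervals held 1 and they overlap each other. Six3 ran at 0.769 times the RPKM of Six6 in ST and 0.707 times in NT.

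Lhx2, a LIM homeodomain factor without which the SCN is not specified, lies on chromosome 2 from 38194801 to 38225253. Its 79 counts in ST and 99 counts in NT gave a fold of 1.007, with the widest interval of the group (0.740 to 1.368), so that a difference within these bounds was not detectable at this depth. Vax1, an optic stalk gene that stays on in the SCN, lies on chromosome 19 from 59240677 to 59244519 (minus strand). It had 452 counts (22.9 RPKM) in ST and 589 counts (23.4 RPKM) in NT, a fold of 0.969 (0.855 to 1.097). Neither gene differed beyond its counting interval.

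Among the remaining members, Zfhx3 and Zic1 were higher in ST beyond counting error, and Lhx1, Tshz1 and Rxrg were not. Lhx1, on chromosome 11 from 84331479 to 84338923 (minus strand, 5 exons), had 1277 counts (15.9 RPKM) in ST and 1675 counts (16.4 RPKM) in NT. Its fold was 0.962 (0.894 to 1.036), so a gap of more than 1.2-fold lies outside its counting interval. Zfhx3, on chromosome 8 from 111238544 to 111485521 (plus strand, 10 exons), had 2185 counts (6.83 RPKM) in ST and 2292 counts (5.63 RPKM) in NT. From a shallower library it thus drew nearly as many reads, and its fold was 1.203 (1.134 to 1.276), a log2 ratio of 0.27. Zfhx3 had the highest ratio among the 9 members. Of all measured genes, 9.15% lay at least as far from 0 in either direction.

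Zic1, on chromosome 9 from 91252896 to 91260648 (minus strand, 3 exons), had 5337 counts (48.5 RPKM) in ST and 5899 counts (42.2 RPKM) in NT. Its fold was 1.142, a log2 ratio of 0.19 with the narrowest interval of the group (0.14 to 0.25 on the log2 scale), and 16.6% of measured genes lay at least as far from 0. Tshz1, a zinc finger homeobox factor first known from its fly relative teashirt, is listed on chromosome 18 from 83653127 to 84255954. That span of 603 kb compares with 74.9 kb in the annotation. It had 485 counts (4.26 RPKM) in ST and 666 counts (4.59 RPKM) in NT, a fold of 0.919 (0.816 to 1.035). Rxrg, the gamma form of the retinoid X receptor that pairs with other nuclear receptors, lies on chromosome 1 from 169528515 to 169569754. It had 255 counts (5.73 RPKM) in ST and 311 counts (5.49 RPKM) in NT, a fold of 1.035 (0.874 to 1.225). The intervals of Tshz1 and Rxrg held 1.

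Counted together, 5 members had a log2 ratio above 0 and 4 below, with a median of 0.010 against -0.002 over all measured genes. Zfhx3 and Zic1 were the 2 members with an interval above 1, which held for 7.81% of measured genes, and 0 members had one below 1, against 10.2%. Shares above 1 varied between lists. They were 30.8% of the 13 pan-neuronal genes, 33.3% of the 15 SCN peptides and receptors, and 0% of the 4 GABA neuron genes. The count of 2 members is therefore not a trait particular to them. At least 1.2-fold higher in ST was 1 member, Zfhx3, against 3.37% of genes, and 0 members were at least 1.2-fold lower, against 6.13%. The 2-fold mark was reached by 0 members and by 0.251% of genes. Zfhx3 stood so near the 1.2-fold mark that scaling on the pan-neuronal genes alone put it below (log2 ratio 0.256). Intervals narrow with depth: among the 2632 genes with at least 4000 counts over both libraries, a limit chosen after the values were seen, 16.5% had an interval above 1, yet 8 genes (0.304%), Zfhx3 among them, were at least 1.2-fold higher.

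**Figure D2:**
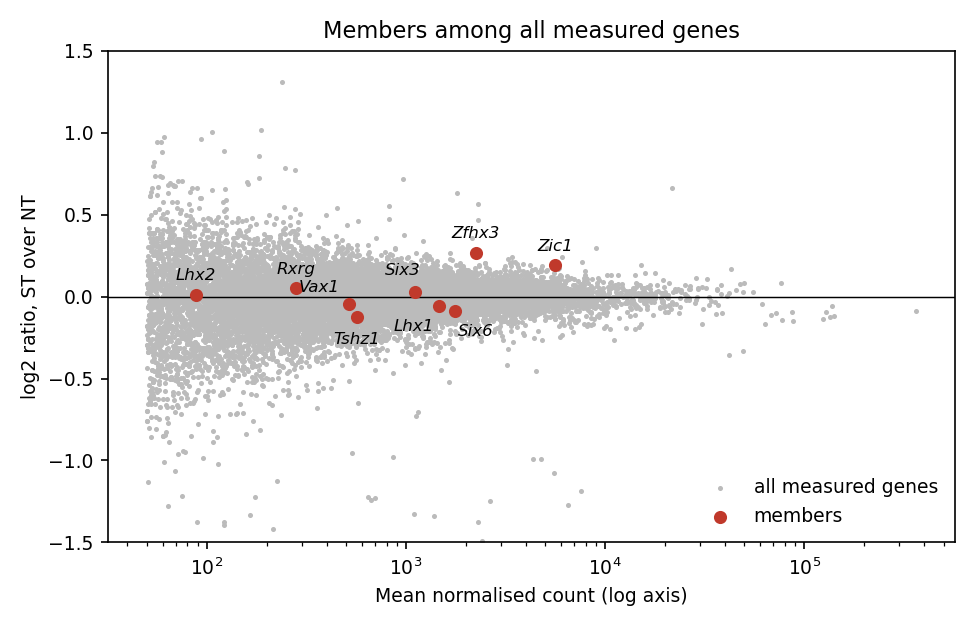
Log2 ratio of ST to NT against mean normalised count (log axis) for 14343 measured genes (grey) and the 9 members (red); 9 genes lie beyond the vertical limits of 1.5. The other 7 members sit between -0.12 and 0.05 and Zic1 (0.19) and Zfhx3 (0.27) lie above them.

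Setting the members against each other, 9 of the 36 pairs had intervals of the fold that did not overlap, and all of these held Zfhx3 or Zic1. Those 2 genes had the highest counts of the 9 members in both libraries, which narrows their intervals. The share of such pairs over all measured genes was not computed, so the count is not a result about the members. Zfhx3 stood above Lhx1, Six6, Six3, Vax1 and Tshz1, and Zic1 above Lhx1, Six6, Vax1 and Tshz1. Zfhx3 and Zic1 overlapped each other. The summed counts of the 9 genes were 12596 in ST and 14817 in NT, a fold of 1.073 (1.048 to 1.099). Without Zic1 the fold was 1.027 (0.996 to 1.060), and this sum still held Zfhx3, the member with the highest ratio. The authors' deposited table gives every member an adjusted p of 1. The unadjusted p there was 0.0430 for Zfhx3, 0.135 for Zic1 and at least 0.461 for the other 7, and 49 genes (0.202%) of the authors' deposited table had an adjusted p below 0.05.

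Relatives of the members were compared in the same way. Of 23 paralogues described here 12 were measured, 8 of them with a log2 ratio above 0 and 4 below, with a median of 0.13. An interval above 1 held for 4 of the 12 (33.3%), against 7.81% of all measured genes, and one below 1 for 0, against 10.2%. The Zic genes described here were on the higher side. Zic2, a midline gene of the forebrain, had 1614 counts (24.5 RPKM) in ST and 1691 counts (20.2 RPKM) in NT, a fold of 1.205 (1.125 to 1.291). Zic4, the neighbour of Zic1 shown above, had 705 counts in ST and 694 in NT, a fold of 1.282 (1.153 to 1.426). Zic5 had 629 counts in ST and 732 in NT, a fold of 1.085 whose interval held 1 (0.973 to 1.208). In 3 of these 4 Zic genes, Zic1 included, the interval therefore lay above 1. This count was 3 under every scaling tried, but these shift all log2 ratios alike, by -0.0110 to 0.0121, too little to change it.

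The 3 Zfhx genes also had intervals above 1, against 7.81% of all measured genes. Zfhx2 had 1700 counts in ST and 1877 counts in NT, a fold of 1.143 (1.070 to 1.221). Zfhx4 had 1125 counts (4.17 RPKM) in ST and 1280 counts (3.72 RPKM) in NT, a fold of 1.109 (1.023 to 1.203). Together with Zfhx3 this count was 3 under every scaling tried, and the shifts were again too small to change it. In the other families the interval of every measured gene described here held 1; the difference between families was not tested. Rxra and Rxrb each had a fold of 0.984, Tshz2 one of 1.061 and Tshz3 one of 0.880. Of the LIM homeobox relatives, Isl1 had a fold of 1.113 (0.909 to 1.362) and Lhx5 1.229 (0.878 to 1.719). Six2, a relative of Six3 and Six6, had 0 counts in ST and 1 in NT, and Vax2, the relative of Vax1, had 0 counts in ST and 2 in NT. A count of 0 in ST allows up to 3 counts, which is 0.0851 RPKM for Six2 and 0.125 RPKM for Vax2.

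**Figure D3:**
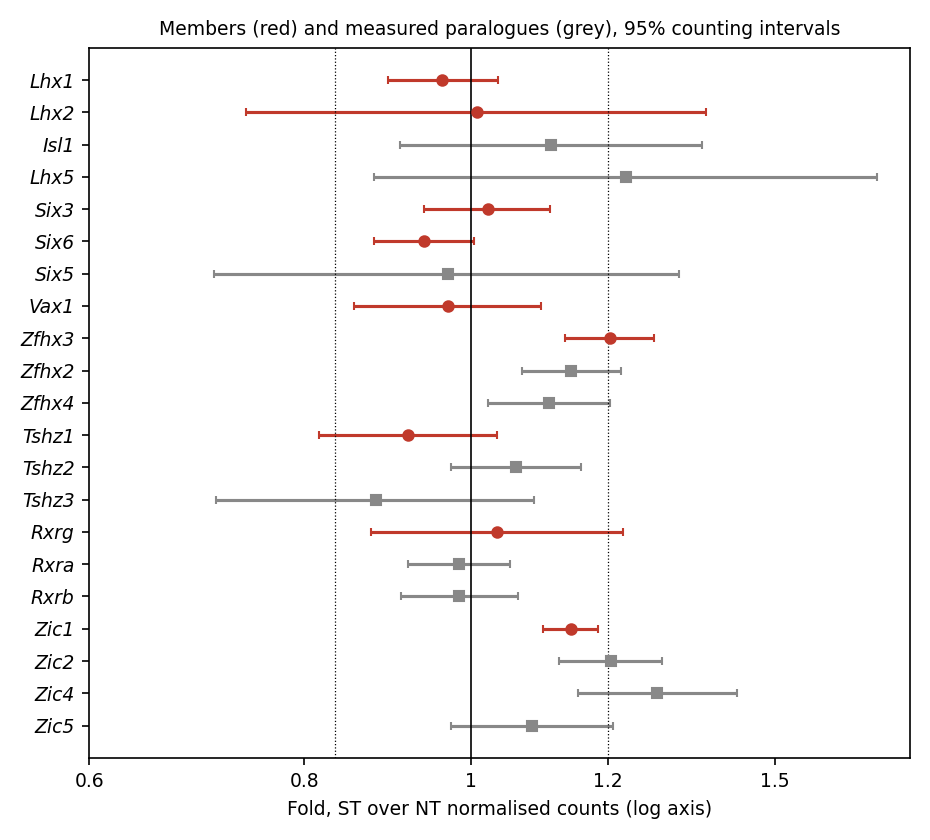
Fold of ST over NT on a log axis for the 9 members (red circles) and the measured paralogues described (grey squares), grouped by family, with exact 95% counting intervals; the solid line marks 1 and dotted lines 1.2-fold either way. The Zic and Zfhx genes lie right of 1, with only the interval of Zic5 (0.973 to 1.208) crossing it, while all other genes shown have intervals that hold 1.

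Members of a family share stretches of code, which bears on how reads can be assigned, and read length was not given in the sources used here. Longest identical runs between coding sequences of GENCODE vM1 are printed in capitals with 20 bases on either side. Between Zic1 and Zic4 the run was 42 bases, at positions 729 to 770 of the Zic1 code and 456 to 497 of the Zic4 code, and the codes were 72.9% identical over 1005 aligned bases. Between Zfhx3 and Zfhx4 it was 35 bases, and between Six6 and Six3 20 bases with 77.0% identity.
Zic1 code: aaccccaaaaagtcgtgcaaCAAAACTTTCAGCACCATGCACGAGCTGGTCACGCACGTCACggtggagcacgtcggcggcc
Zic4 code: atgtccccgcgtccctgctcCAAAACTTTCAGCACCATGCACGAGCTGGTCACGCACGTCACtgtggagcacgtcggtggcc
Zfhx3 code: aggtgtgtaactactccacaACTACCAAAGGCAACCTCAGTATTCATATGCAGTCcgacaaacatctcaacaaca
Zfhx4 code: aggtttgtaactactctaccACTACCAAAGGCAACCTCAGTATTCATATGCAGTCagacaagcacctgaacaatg
Six6 code: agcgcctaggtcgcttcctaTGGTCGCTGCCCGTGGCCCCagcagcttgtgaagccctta
Six3 code: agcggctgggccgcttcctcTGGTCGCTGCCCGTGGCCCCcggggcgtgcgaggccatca
Zic1 and Zfhx3 had whole counts in both libraries, as did Zic2, Zic4 and Zfhx2, whereas Zic5 and Zfhx4 had fractional ones. How fractions arose is not given in the labels, and whether reads of one relative were counted for another was not tested.

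Genes next to the members on the chromosome were examined as well. Six6 overlaps the antisense gene Six6os1 over 889 bases, and both had fractional counts. Six6os1 had 499 counts in ST and 708 in NT, a fold of 0.890 (0.792 to 0.999), on the same side as Six6. Without a statement on strand, reads from the overlap cannot be assigned to either gene. Six3os1, on the opposite strand 2.67 kb from Six3 in the deposited coordinates, had 231 counts in ST and 335 in NT, a fold of 0.870 (0.733 to 1.032). In the annotation Six3 starts at 86012948, before Six3os1 ends at 86017705, so the 2 genes overlap there. Reads of that stretch cannot be assigned either. The non-coding locus AL603708.1, which starts 0.238 kb from the start of Lhx1, had 139 counts in ST and 186 in NT, a fold of 0.943 (0.752 to 1.181). Lhx2 overlaps AL929186.1 on the opposite strand, which took 3 counts in ST and 2 in NT, and its own counts were fractional too. Zadh2, 1.595 kb from Tshz1, had a fold of 0.989 with an interval that held 1.

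Other regulators of the SCN and of the early hypothalamus were spread around 0. Of 22 listed, 19 were measured, 6 with a log2 ratio above 0 and 13 below, with a median of -0.01. Intervals lay above 1 for 3 (15.8%) and below 1 for 3 (15.8%), against 7.81% and 10.2% of all measured genes. Rora, a nuclear receptor of the clock loop that is enriched in the SCN, had a fold of 0.904 (0.867 to 0.943), and its counts were fractional. Its relative Rorb was at 1.057 (1.002 to 1.115). Sox3, a neural progenitor factor, was at 1.217 (1.053 to 1.406) and Fezf1, a factor of the ventromedial hypothalamus, at 1.289 (1.013 to 1.641). Dlx5, of the Dlx genes that specify GABA neurons, was at 0.820 (0.687 to 0.976). Meis2, a homeobox gene of striatal and other forebrain neurons, had 40 counts in ST and 106 in NT, a fold of 0.476 (0.322 to 0.691). The abundant Id4 (104 RPKM in ST and 104 RPKM in NT) was at 0.992 and Sox2 at 0.996, both with intervals that held 1.

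Of the regulators of neighbouring nuclei, 9 were measured and are described here, 4 with a log2 ratio above 0 and 5 below. Intervals lay below 1 for 3 of them (33.3%, against 10.2% of all measured genes), Tbx3, Nr5a1 and Foxb1, all with fractional counts. Nr5a1, of the ventromedial nucleus, had 115 counts in ST and 191 in NT, a fold of 0.760 (0.598 to 0.963). Foxb1, of the mammillary region, had 36 counts in ST and 70 in NT, a fold of 0.649 (0.422 to 0.984). Tbx3, a factor of the arcuate nucleus, had 39 counts in ST and 89 in NT, a fold of 0.553 (0.369 to 0.814). On the higher side, Sim1 had a fold of 1.147 (0.962 to 1.367). Otp, the most abundant of the list at 11.9 RPKM in ST and 10.3 in NT, had one of 1.140 (0.964 to 1.348). Both intervals held 1, as did those of the other genes above 0. Summed over the list, levels were 24.5 RPKM in ST and 23.1 RPKM in NT, with Neurod6 at 0 counts in ST and 2 in NT. Peptides and markers of the neighbouring hypothalamus had a median log2 ratio of -0.24 over the 6 measured. Over all 11 found, measured or not, the summed level was 945 RPKM in ST and 796 RPKM in NT. Oxt, oxytocin of magnocellular neurons, had 812 RPKM in ST and 655 RPKM in NT, Trh, thyrotropin-releasing hormone, 90.7 RPKM in ST and 60.8 RPKM in NT, and Pomc, the precursor made in the arcuate nucleus, 7.19 RPKM in ST and 37.9 RPKM in NT. Meningeal markers had a median log2 ratio of -0.80 over the 8 measured. Over all 10 found, the summed level was 14.5 RPKM in ST and 25.5 RPKM in NT. Foxc2 had 0 counts in ST and 6 in NT. The part of tissue composition in the values of Zic1 and Zfhx3 was not tested. On the pan-neuronal scale the log2 ratio of Zic1 was 0.181 and that of Zfhx3 0.256. That scale shifts all genes by the same -0.0110, so it is no test of tissue composition.

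**Figure D4:**
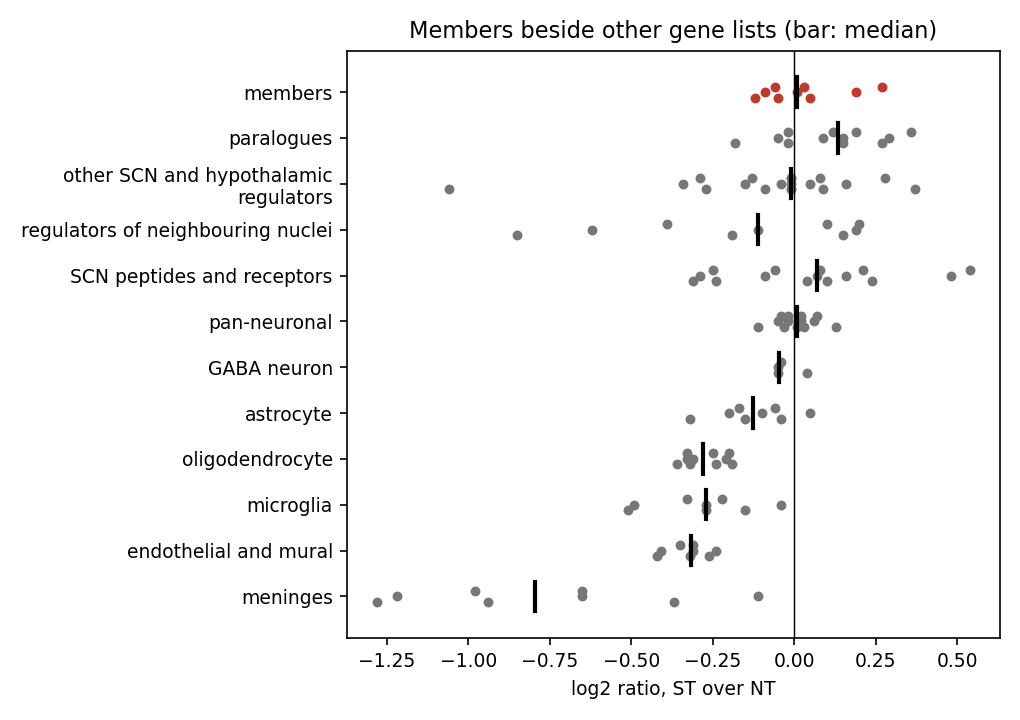
Log2 ratio of ST to NT for each measured gene (dots) of the members (red) and of 11 gene lists (grey), with the median of each as a black bar. The members centre on 0.01, the paralogues on 0.13, and the medians of the glial, vascular and meningeal lists lie below 0, down to -0.80 for meninges.

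Neuropeptides and receptors of the SCN, several of which depend on Lhx1 or Zfhx3 in mutant mice, had a median log2 ratio of 0.07 over 15 genes, with 5 intervals above 1 and 2 below. Vip, Nms, Grp and Prok2 had folds of 0.849, 0.841, 0.942 and 0.818, and Avp, Sst and Cck folds of 1.156, 1.180 and 1.450. The intervals of Grp (0.822 to 1.078) and Prok2 (0.632 to 1.054) held 1. With 2 libraries no gene's pattern can be matched to that of a member.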

How the data were processed

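One RNA library per group was analysed. Per the submitters' processing notes, CASAVA 1.8.2, TopHat 1.2, DESeq and the build mm9 were used, with no role or order given; the counter, strand and read length were not given in the sources used here. As values, the authors deposited estimated counts (RC per the file headers), which are partly fractional, with RPKM and RPM values. They also deposited a fold change of ST over NT, its log2 value, and p-values before and after adjustment. A further 3 columns of means were not used. Counts were rounded to whole numbers and scaled by median-of-ratios size factors over all genes (0.890 for ST, 1.123 for NT). The log2 ratio took a pseudocount of 0.5, folds did not. Intervals are exact 95% Clopper-Pearson intervals of the ST share of both counts. Levels carry exact Poisson intervals. Duplicate molecules cannot be recognised, so the intervals cover counting error only. Fractional means a count off a whole number by more than 1e-06.

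Of the identifiers, 23161 were found in GENCODE vM1, and 99.6% of these overlapped the annotated gene; strand codes were read from that match. Start regions came from RefSeq (GRCm38.p6). The members and lists were chosen with earlier results of these data known. The genes named are all members, their measured paralogues, their nearest and overlapping neighbours, and measured SCN regulators and peptides. From other lists they are up to 4 genes by size of the log2 ratio and the most abundant one. Vip and Avp levels, Neurod6 and Foxc2 were named as markers. Some listed genes are not reported here, and the counts of their lists leave them out. Alternatives were total-count, TMM (edgeR 4.0.16) and pan-neuronal scaling, a pseudocount of 5, RPKM ratios, filters of 10 and 200, and size rules of 1.1, 1.5 and 2-fold. The calculations, in Python 3.11.15 with scipy 1.17.1, were tested on simulated data.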

Additional observations from a re-analysis of the deposited data

How the results depend on the processing

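No paired analysis was possible because there was 1 library per group, and no replicate could be left out. The log2 ratios of the 9 members stayed inside their counting intervals under total-count, TMM and pan-neuronal scaling, a pseudocount of 5 and the deposited RPKM, although Lhx2 changed sign to -0.001 with pan-neuronal scaling. Their median ran from -0.001 on the pan-neuronal scale to 0.031 over the 7 members with whole counts, a choice made after the data were seen. The number of members at least 1.2-fold higher in ST, 1 as reported, was 0 with pan-neuronal scaling, 2 at 1.1-fold, 0 at 1.5-fold and 0 at 2-fold, and the number with an interval below 1, 0 as reported, was 1 (Six6) with pan-neuronal scaling. RPKM ratios have no counting interval, so none was counted there. All 9 members passed a filter of 10 and 8 passed one of 200, which Lhx2 missed. Depth limits Lhx2 most, with an interval of 0.740 to 1.368.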

Other observations

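Homeobox genes outside the members, taken by the word in their deposited description after the data had been seen, lay mostly below 0; the paralogues described above that carry the word are among them. Of 101 such genes 39 were measured, 12 with a log2 ratio above 0 and 27 below, with a median of -0.11. Their intervals lay above 1 for 1 (2.56%) and below 1 for 7 (17.9%), against 7.81% and 10.2% of all measured genes. The LIM homeobox gene Lhx6, named after its values were seen and known from cortical and hypothalamic interneurons, missed the filter; it had 56 counts in ST against 21 in NT, a fold of 3.37 (2.01 to 5.85).

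Genes whose counted length exceeded 10 kb, as that of Zfhx3 does, had a median log2 ratio of 0.023 over 589 measured genes; of these, 16.8% had an interval above 1, and 1.53% reached 1.2-fold in that direction. In the shorter length classes 6.40% to 9.02% of genes had an interval above 1.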
